A study of Homo sapiens with 6 samples.

Results

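MYC, the gene of an oncogenic transcription factor, and 35 genes whose proteins build ribosomes in the nucleolus were followed in a human leukaemia line. The 36 genes were taken by symbol from a list, with no threshold on their values. That list and the further lists below were chosen with earlier results of these data known. All 36 were found among the 23519 genes present in each of the 3 deposited tables, and all 36 passed the filter that left 15438 genes to be tested on 1 common scale. SKM-1 is an established acute myeloid leukaemia line. Poly-A selected RNA of these cells was sequenced in 6 libraries: 1 with VEM, which the series title names as the RAF kinase inhibitor vemurafenib, 1 with VEM combined with BOR, 2 with BOR alone and 2 untreated. The labels do not spell out BOR, and neither dose nor time is given in the sources used here. All libraries come from this single line, and no label says whether the paired libraries were grown as separate cultures. The p-values below therefore rest only on spread between these libraries, most of it borrowed from other genes, and that spread may be technical. The single VEM and VEM+BOR libraries add no spread of their own.

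Ribosome production starts in the nucleolus, where RNA polymerase I transcribes the ribosomal RNA precursor. Small nucleolar ribonucleoproteins (snoRNPs) guide its chemical modification, and assembly factors then cleave it and fold it into the small and the large ribosomal subunit. MYC is a known activator of this programme at nearly every step, and in blood cancers its level is closely tied to growth.

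The libraries held 17252404 to 18507606 reads in genes each, and mitochondrial transcripts took 3.14% to 5.4% of them. The 36 genes together took 0.710% of reads in VEM, 0.857% in VEM+BOR, 0.903% in BOR 1 and 0.584% in BOR 2, against 0.744% in untreated 1 and 1.13% in untreated 2. BOR 2 stood apart from the other libraries: over all genes tested, its log2 differences from the untreated mean had an SD of 1.46, against 0.38 in BOR 1, 0.50 in VEM and 0.53 in VEM+BOR. The main results that rest on BOR 2 are therefore also given without it. Of 7 myeloid markers, 6 were listed and KIT was not. The pan-leukocyte gene PTPRC had 10.8 CPM (reads scaled to the library total) in BOR 2 and between 175.4 and 272.0 CPM elsewhere. The granule enzyme gene MPO had 411.9 CPM in VEM, 284.6 in VEM+BOR, 1052 in BOR 1 and 1677 in BOR 2, against 1212 (untreated 1) and 873.5 (untreated 2). The myeloid factor CEBPA had 78.8 CPM in VEM, 77.0 in VEM+BOR, 146.3 in BOR 1 and 82.5 in BOR 2, against 121.6 (untreated 1) and 162.4 (untreated 2). MPO and CEBPA were thus below both untreated libraries in VEM and VEM+BOR. SPI1, another myeloid factor, had 287.0 to 415.6 CPM, CD33 36.4 to 93.0 CPM and LYZ 0.555 to 8.82 CPM in the 6 libraries. Other markers went the opposite way in VEM+BOR. PTPRC had 272.0 CPM there, against 217.9 (untreated 1) and 175.4 (untreated 2). SPI1 had 415.6 CPM, against 348.6 and 408.8, and LYZ 2.67 CPM, against 1.50 and 0.555. On library totals, 3 of the 6 listed markers were above both untreated libraries in VEM+BOR and 2 below both. Of the 15438 genes tested, 4401 were above both there and 4586 below both. In VEM, 0 markers were above both and 3 below both, against 5214 and 3873 of the genes tested. Among markers of other cell types, the T-cell gene CD3E and the B-cell gene MS4A1 were not listed. The epithelial gene EPCAM had 0.216 to 0.812 CPM, the endothelial gene PECAM1 0.290 to 1.95 CPM, the haemoglobin gene HBA1 0 to 0.173 CPM and the collagen gene COL1A1 1.55 to 8.81 CPM in the 6 libraries. Their part in the results below was not tested. In bulk RNA, fewer cells with a transcript and less of it per cell cannot be told apart.

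MYC binds DNA at the E-box, the 6-letter motif CACGTG, which reads the same on both strands. This shared feature was looked up in RefSeq promoter windows (GRCh38.p14) that cover 250 bases before and 50 bases after each gene's start. A window existed for 30 of the 36 genes. BOP1, MYC, NOLC1, NOP58, RRP12 and RRS1 had none. The motif was present for 13 of these 30 genes, or 43.3%, against 12.9% of the 10568 tested genes with a window and 8.77% of all 27305 genes with a window. The related letters CACGCG, searched on both strands, were present for 33.3% of the 30 genes against 22.6% of tested genes, and CATGTG for 6.67% against 9.84%. In 10 of the 13 genes the CACGTG motif began at or after the first transcribed base, with positions between -64 and 35 relative to it. Over all windows 11.1% of 2821 motifs did so. The 30-base stretches around the motif are shown, with the motif in capitals and read 5′ to 3′ on the gene's own strand, for 6 genes that went opposite ways in BOR 2: FBL (chr19:39846356-39846385, minus strand) and PES1 (chr22:30591880-30591909, minus strand) were above both untreated libraries there, while DDX21 (chr10:68956604-68956633, plus strand), WDR43 (chr2:28894658-28894687, plus strand), GNL3 (chr3:52686026-52686055, plus strand) and LYAR (chr4:4290068-4290097, minus strand) were below both.
FBL: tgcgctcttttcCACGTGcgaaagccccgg
PES1: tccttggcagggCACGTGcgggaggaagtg
DDX21: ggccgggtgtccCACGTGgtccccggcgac
WDR43: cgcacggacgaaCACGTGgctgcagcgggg
GNL3: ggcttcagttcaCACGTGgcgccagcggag
LYAR: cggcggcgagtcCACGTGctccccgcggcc

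The 6 stretches share the motif and differ around it. The median log2 shifts in VEM were -0.45 for the 13 genes with it and -0.40 for the 17 without it. In VEM+BOR they were 0.02 with the motif and 0.11 without it, and in BOR 1 0.02 and -0.02. In BOR 2 the median shifts were -0.34 with the motif and 0.06 without it, and for BOR 2 minus BOR 1 they were -0.56 and 0.08. The BOR 2 shifts overlapped widely, from -2.83 to 1.17 with the motif and from -3.75 to 1.47 without it. Between the untreated libraries, untreated 2 minus untreated 1, the medians were 0.71 with the motif and 0.84 without it. These are descriptions of letters and levels, and binding of MYC was not measured.

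The 3 comparisons with untreated share the same 2 untreated libraries, so the difference between those libraries is given first. Values here are read counts divided by a size factor per library, all 6 brought to 1 scale. Every one of the 36 genes was higher in untreated 2 than in untreated 1, against 50.4% of all genes tested. The median log2 difference was 0.74 over the 36 genes, with a range of 0.13 to 1.36, against 0.01 over all genes tested. Scaled to library totals instead, the median was 0.54 against -0.19 over all genes, and 35 of 36 genes were higher in untreated 2, against 36.1% of all genes tested. With 1 library on each side this difference has no replicate check. A wide gap between the untreated libraries also makes it likelier that a treated library lies between them. The counts below of members inside the untreated range therefore do not measure a lack of response. The pre-60S factor NIP7 had the widest gap, with 2804 in untreated 2 and 1093 in untreated 1. The U3 snoRNP protein RRP9 had 2955 in untreated 2 and 1269 in untreated 1. MYC itself differed less, with 10574 in untreated 2 and 6977 in untreated 1. The narrowest gaps were those of the 28S methyltransferase gene NOP2, of HEATR1 and of POLR1A, the gene of the largest subunit of RNA polymerase I. Across the 36 genes, which are not independent replicates, the difference had a Spearman correlation of -0.55 with transcript length and 0.10 with GC content. Over 12738 protein-coding genes these values were -0.37 and 0.04. Longer members thus differed less between the untreated libraries.

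**Figure D1:**
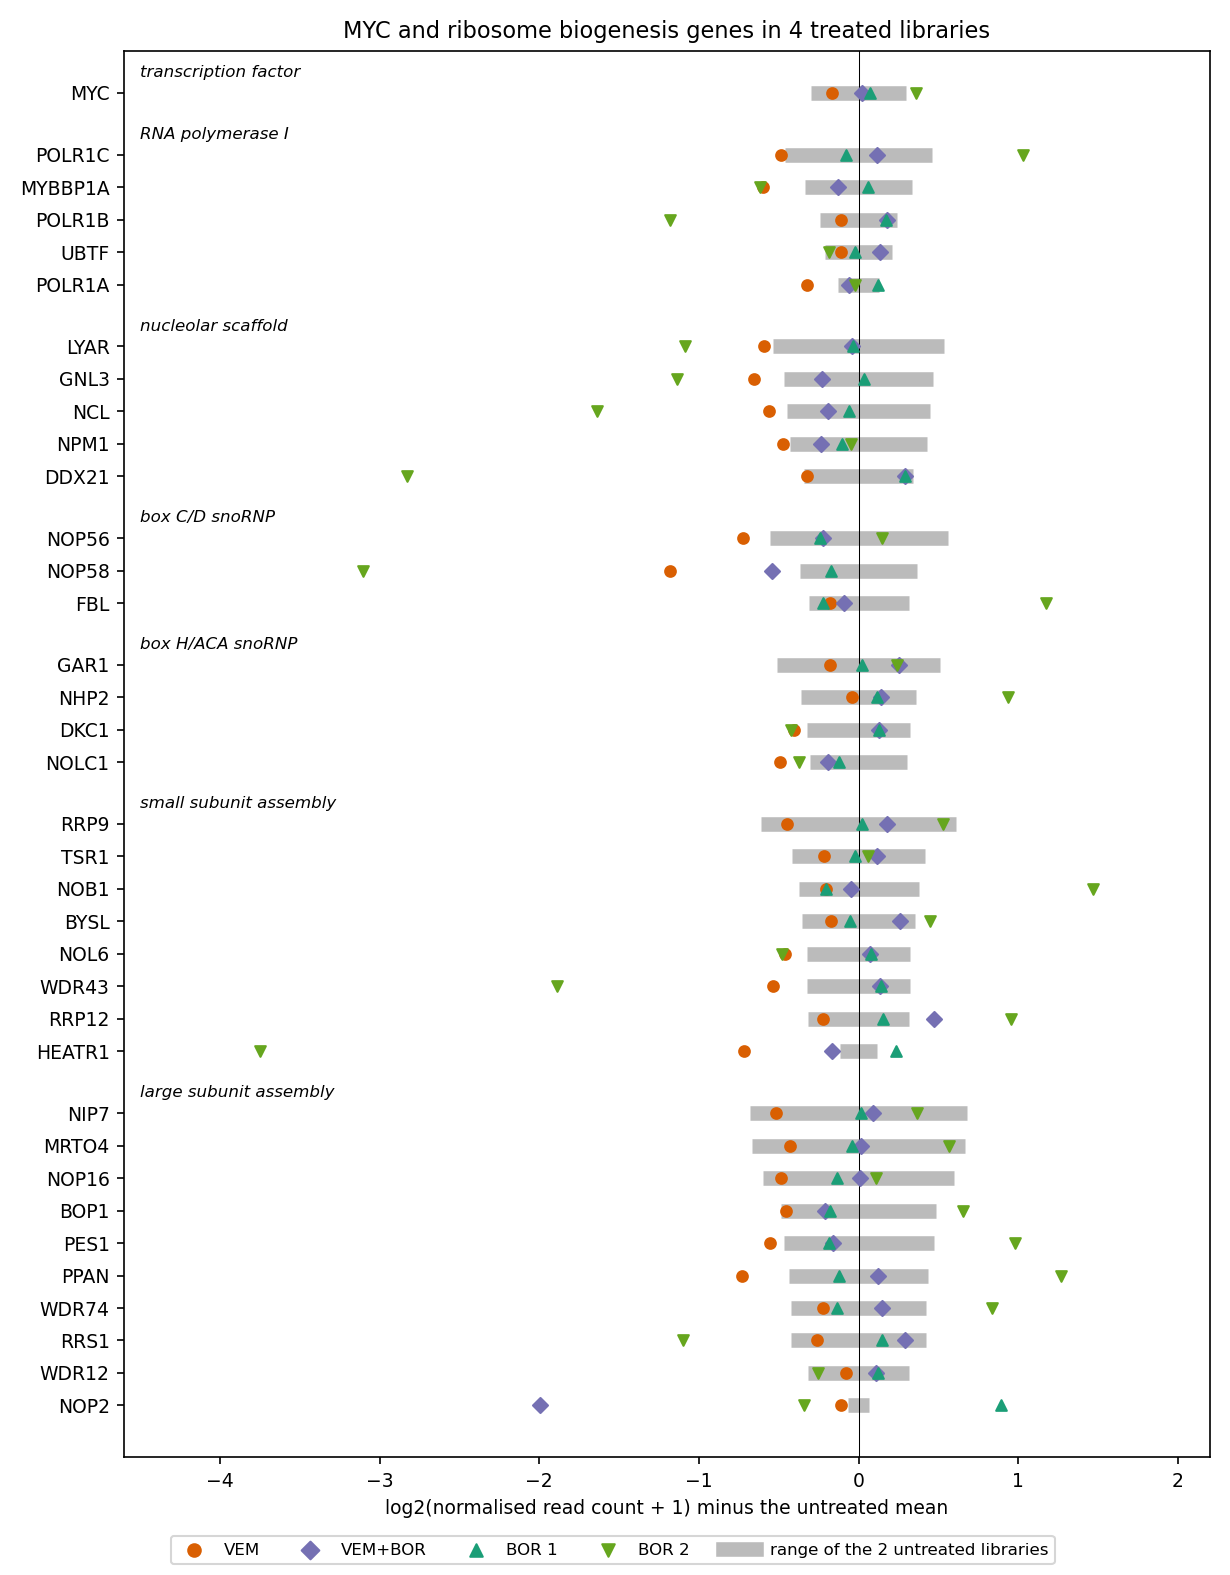
For each of the 36 genes, grouped by role, the log2(normalised read count + 1) of VEM, VEM+BOR, BOR 1 and BOR 2 is plotted minus the untreated mean, and the grey bar spans the 2 untreated libraries. VEM lies in the left part of the bar or left of it for most genes, VEM+BOR and BOR 1 mostly inside them, and BOR 2 spreads between -3.75 (HEATR1) and 1.47 (NOB1).

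VEM-treated cells carried these transcripts at the level of the lower untreated library. In VEM, 17 of 36 genes were below both untreated libraries, 0 were above both and 19 lay between. Over all genes tested, 27.3% were below both and 30.9% above both. The median log2 change of VEM against the untreated mean was -0.45, with all 36 values negative (-1.19 to -0.05), against 0.00 over all genes tested. Set against untreated 1 alone the median was 0.02, and against untreated 2 alone it was -0.79. The direction therefore rests on untreated 2. No gene of the 36 passed limma's test at a Benjamini-Hochberg adjusted p under 0.05, where 0.0446% of all genes tested did. At an unadjusted p under 0.05 there was 1 member of 36, NOP58, a share near the 2.54% of all genes tested. The shift from the untreated mean was larger than the whole untreated difference for 3 members, NOP58, HEATR1 and POLR1A, against 34.7% of all genes tested.

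MYC (ENSG00000136997, chr8:127735434-127741434, plus strand in GENCODE 29 on GRCh38) had 7651 normalised reads in VEM, 8718 in VEM+BOR, 9007 in BOR 1 and 11038 in BOR 2, against 6977 in untreated 1 and 10574 in untreated 2. VEM, VEM+BOR and BOR 1 thus lay between the untreated libraries, whose mean was 8775 ± 2543 (SD, n = 2). The log2 change was -0.17 with an SE of 0.46 in VEM, 0.01 with an SE of 0.46 in VEM+BOR and 0.22 with an SE of 0.48 in BOR. BOR 2 was above both, and on library totals its MYC level was below both, at 447.1 CPM in BOR 2 against 458.6 and 606.1 CPM in the untreated libraries. Per kilobase of exon model MYC had an untreated mean of 2924 normalised reads, which NPM1 at 7696, FBL at 4069 and NCL at 3803 exceeded. PPAN at 71.7 and NOP2 at 2.95 were the lowest.

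The nucleolar scaffold proteins were the group with 4 of 5 genes below both untreated libraries in VEM, against 27.3% of all genes tested. On library totals it was 5 of 5, against 3873 of the 15438 genes tested. NPM1 encodes nucleophosmin, a chaperone that is often mutated in acute myeloid leukaemia. It had 20294 normalised reads in VEM, 23975 in VEM+BOR, 26241 in BOR 1 and 27258 in BOR 2, against 20931 (untreated 1) and 37988 (untreated 2). NCL, the gene of nucleolin, had 17023 in VEM, 22025 in VEM+BOR, 24160 in BOR 1 and 8068 in BOR 2, against 18450 (untreated 1) and 34246 (untreated 2). The VEM values of both genes were just under the lower untreated library. GNL3, the gene of nucleostemin, had 2341 in VEM, 3150 in VEM+BOR, 3774 in BOR 1 and 1675 in BOR 2, against 2672 (untreated 1) and 5089 (untreated 2). GNL3 was below both untreated libraries in VEM and BOR 2. LYAR, the gene of a zinc finger protein of the nucleolus, had 1133 in VEM, 1658 in VEM+BOR, 1669 in BOR 1 and 804.3 in BOR 2, against 1178 (untreated 1) and 2480 (untreated 2). It showed the same placing as GNL3. The helicase gene DDX21 had 5266 in VEM, 8077 in VEM+BOR, 8065 in BOR 1 and 927.0 in BOR 2, against 5203 (untreated 1) and 8377 (untreated 2). DDX21 was the scaffold gene that lay between the untreated libraries in VEM, just over the lower one, and in BOR 2 it lay far below both. Its place in VEM turned with the scaling. On library totals DDX21 was below both there, at 335.6 CPM against 342.0 (untreated 1) and 480.2 (untreated 2).

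Genes of the box C/D snoRNP, the particle that methylates ribosomal RNA on the ribose, differed from one another. NOP58, a core protein (ENSG00000055044, chr2:202265716-202303666, plus strand in GENCODE 29 on GRCh38), had 1290 normalised reads in VEM, 2010 in VEM+BOR, 2594 in BOR 1 and 338.8 in BOR 2, against 2269 (untreated 1) and 3762 (untreated 2). It was below both untreated libraries in VEM, VEM+BOR and BOR 2, and its VEM log2 change of -1.19 had the largest size among the 36 (SE 0.40, limma adjusted p = 1, unadjusted p = 0.00762). The partner core protein NOP56 had 3415 in VEM, 4835 in VEM+BOR, 4776 in BOR 1 and 6253 in BOR 2, against 3832 (untreated 1) and 8302 (untreated 2). The methyltransferase FBL had 7626 in VEM, 8101 in VEM+BOR, 7403 in BOR 1 and 19493 in BOR 2, against 6950 (untreated 1) and 10734 (untreated 2). FBL was between the untreated libraries in VEM, VEM+BOR and BOR 1. The ratio of NOP58 to FBL within a library was 0.169 in VEM, 0.248 in VEM+BOR, 0.350 in BOR 1 and 0.0174 in BOR 2, against 0.327 (untreated 1) and 0.351 (untreated 2). This ratio needs no scaling between libraries, and it was below both untreated values in VEM, VEM+BOR and BOR 2, while in BOR 1 it lay at the upper untreated value.

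In the box H/ACA group, whose particle turns uridine into pseudouridine, the median VEM change was -0.30. DKC1, the gene of the pseudouridine synthase dyskerin, had 2976 normalised reads in VEM, 4301 in VEM+BOR, 4302 in BOR 1 and 2938 in BOR 2, against 3151 (untreated 1) and 4916 (untreated 2). NHP2, a core protein, had 3705 in VEM, 4218 in VEM+BOR, 4133 in BOR 1 and 7321 in BOR 2, against 2974 (untreated 1) and 4907 (untreated 2). DKC1 was below both untreated libraries in VEM and BOR 2, whereas NHP2 was between them in VEM and above both in BOR 2. The ratio of DKC1 to NHP2 was 0.803 in VEM, 1.02 in VEM+BOR, 1.04 in BOR 1 and 0.401 in BOR 2, against 1.06 (untreated 1) and 1.0 (untreated 2). GAR1, another core protein, had 1208 in VEM, 1627 in VEM+BOR, 1384 in BOR 1 and 1617 in BOR 2, against 958.2 (untreated 1) and 1947 (untreated 2), so that every treated library lay between the untreated ones. The snoRNP chaperone NOLC1 had 3954 in VEM, 4877 in VEM+BOR, 5131 in BOR 1 and 4308 in BOR 2, against 4524 (untreated 1) and 6870 (untreated 2). VEM and BOR 2 lay below both for NOLC1. Of the exonic bases of NHP2, 27.4% lie in overlapping gene models, and the protocol names no step that marks strand, so reads there cannot be assigned to 1 gene with certainty. The same holds for HEATR1 at 23.2%, WDR74 at 22.3%, TSR1 at 20.8%, NIP7 and NOB1 at 20.2% each, NOP16 at 20% and POLR1C at 18.2%.

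The genes that act on RNA polymerase I had the narrowest gap between the untreated libraries among the groups with more than 1 gene, at a median of 0.49. POLR1A had 1432 normalised reads in VEM, 1716 in VEM+BOR, 1949 in BOR 1 and 1769 in BOR 2, against 1641 (untreated 1) and 1958 (untreated 2). POLR1B, the next largest subunit, had 1274 in VEM, 1554 in VEM+BOR, 1546 in BOR 1 and 604.2 in BOR 2, against 1161 (untreated 1) and 1627 (untreated 2). POLR1C, a subunit shared with RNA polymerase III, had 714.9 in VEM, 1084 in VEM+BOR, 949.1 in BOR 1 and 2050 in BOR 2, against 727.8 (untreated 1) and 1381 (untreated 2). VEM was below both untreated libraries for POLR1A and POLR1C and between them for POLR1B. UBTF, which binds the ribosomal DNA promoter, had 3089 in VEM, 3672 in VEM+BOR, 3285 in BOR 1 and 2930 in BOR 2, against 2886 (untreated 1) and 3862 (untreated 2). It was between the untreated libraries in every treated library. MYBBP1A, a nucleolar MYB-binding protein, had 1701 in VEM, 2362 in VEM+BOR, 2686 in BOR 1 and 1677 in BOR 2, against 2041 (untreated 1) and 3256 (untreated 2), and was below both in VEM and BOR 2.

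Small-subunit assembly genes held both the lowest and the highest member in BOR 2, HEATR1 and NOB1. HEATR1, which links transcription to early processing of the precursor (ENSG00000119285, chr1:236549005-236604504, minus strand), had 1121 normalised reads in VEM, 1643 in VEM+BOR, 2174 in BOR 1 and 136.1 in BOR 2, against 1704 (untreated 1) and 1996 (untreated 2). VEM and VEM+BOR were below both untreated libraries for it, BOR 1 above both and BOR 2 far below. NOB1, the endonuclease that makes the final cut of 18S rRNA, had 1134 in VEM, 1263 in VEM+BOR, 1132 in BOR 1 and 3619 in BOR 2, against 1006 (untreated 1) and 1694 (untreated 2). WDR43, another early processing factor, had 1213 in VEM, 1931 in VEM+BOR, 1939 in BOR 1 and 473.5 in BOR 2, against 1405 (untreated 1) and 2196 (untreated 2). RRP12, a factor for export of the precursor of the small subunit, had 1512 in VEM, 2446 in VEM+BOR, 1963 in BOR 1 and 3421 in BOR 2, against 1414 (untreated 1) and 2196 (untreated 2). RRP12 was the 1 member above both untreated libraries in VEM+BOR. NOL6, a protein of the early processome, had 1470 in VEM, 2121 in VEM+BOR, 2129 in BOR 1 and 1447 in BOR 2, against 1613 (untreated 1) and 2531 (untreated 2). RRP9 had 1416 in VEM, 2188 in VEM+BOR, 1968 in BOR 1 and 2790 in BOR 2, against 1269 (untreated 1) and 2955 (untreated 2). NOL6 was below both untreated libraries in VEM and BOR 2, while RRP9 was between them in every treated library. TSR1, a late factor of the small subunit, had 1067 in VEM, 1344 in VEM+BOR, 1221 in BOR 1 and 1295 in BOR 2, against 928.4 (untreated 1) and 1657 (untreated 2). BYSL, the gene of bystin, had 1245 in VEM, 1679 in VEM+BOR, 1349 in BOR 1 and 1914 in BOR 2, against 1097 (untreated 1) and 1790 (untreated 2). TSR1 and BYSL were between the untreated libraries in VEM, VEM+BOR and BOR 1.

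Among the 10 large-subunit genes, PES1, PPAN and NOP2 were below both untreated libraries in VEM and the other 7 were between them. PES1 had 2074 normalised reads in VEM, 2716 in VEM+BOR, 2674 in BOR 1 and 5988 in BOR 2, against 2196 (untreated 1) and 4213 (untreated 2). Its partner BOP1 in the PeBoW complex, which processes the large-subunit precursor, had 4713 in VEM, 5580 in VEM+BOR, 5712 in BOR 1 and 10156 in BOR 2, against 4618 (untreated 1) and 9040 (untreated 2). The ratio of BOP1 to PES1 was 2.27 in VEM, 2.06 in VEM+BOR, 2.14 in BOR 1 and 1.70 in BOR 2, against 2.10 (untreated 1) and 2.15 (untreated 2). The ratio was above both untreated values in VEM and below both in VEM+BOR and BOR 2. WDR12, the remaining PeBoW gene, had 1803 in VEM, 2060 in VEM+BOR, 2075 in BOR 1 and 1597 in BOR 2, against 1534 (untreated 1) and 2372 (untreated 2), and every treated library lay between the untreated ones. The ratio of WDR12 to PES1 was 0.869 in VEM, 0.759 in VEM+BOR, 0.776 in BOR 1 and 0.267 in BOR 2. The untreated ratios were 0.698 (untreated 1) and 0.563 (untreated 2). VEM, VEM+BOR and BOR 1 were above both of these and BOR 2 below both. NIP7 had 1223 in VEM, 1863 in VEM+BOR, 1767 in BOR 1 and 2261 in BOR 2, against 1093 (untreated 1) and 2804 (untreated 2). MRTO4, which works in assembly of the ribosomal stalk, had 1744 in VEM, 2374 in VEM+BOR, 2278 in BOR 1 and 3473 in BOR 2, against 1478 (untreated 1) and 3717 (untreated 2). NIP7 and MRTO4 had every treated library inside their wide untreated range. NOP16, a pre-60S factor, had 1286 in VEM, 1814 in VEM+BOR, 1641 in BOR 1 and 1942 in BOR 2, against 1189 (untreated 1) and 2721 (untreated 2). RRS1, which helps to bring in the 5S particle, had 1498 in VEM, 2190 in VEM+BOR, 1983 in BOR 1 and 835.0 in BOR 2, against 1338 (untreated 1) and 2398 (untreated 2). NOP16 was inside the untreated range in all treated libraries, and RRS1 was below it in BOR 2. WDR74, another pre-60S factor, had 674.9 in VEM, 873.5 in VEM+BOR, 718.9 in BOR 1 and 1407 in BOR 2, against 588.6 (untreated 1) and 1058 (untreated 2), and was above both in BOR 2. PPAN had 106.4 in VEM, 192.8 in VEM+BOR, 162.6 in BOR 1 and 428.2 in BOR 2, against 130.5 (untreated 1) and 240.0 (untreated 2). It shares 59.8% of its exonic bases with 2 overlapping genes, mostly with the read-through gene PPAN-P2RY11 (1447 of 2583 bases). NOP2 rested on 14 reads in VEM, 3 in VEM+BOR, 29 in BOR 1 and 8 in BOR 2, against 15 (untreated 1) and 15 (untreated 2), while no other member had fewer than 102 reads in any library. Its ratio of VEM+BOR to untreated reads was 0.193, with an exact 95% interval of 0.0377 to 0.621 that covers counting error only. NOP2 shares 54.4% of its exonic bases with another annotated gene on the same strand, so its level is uncertain.

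**Figure D2:**
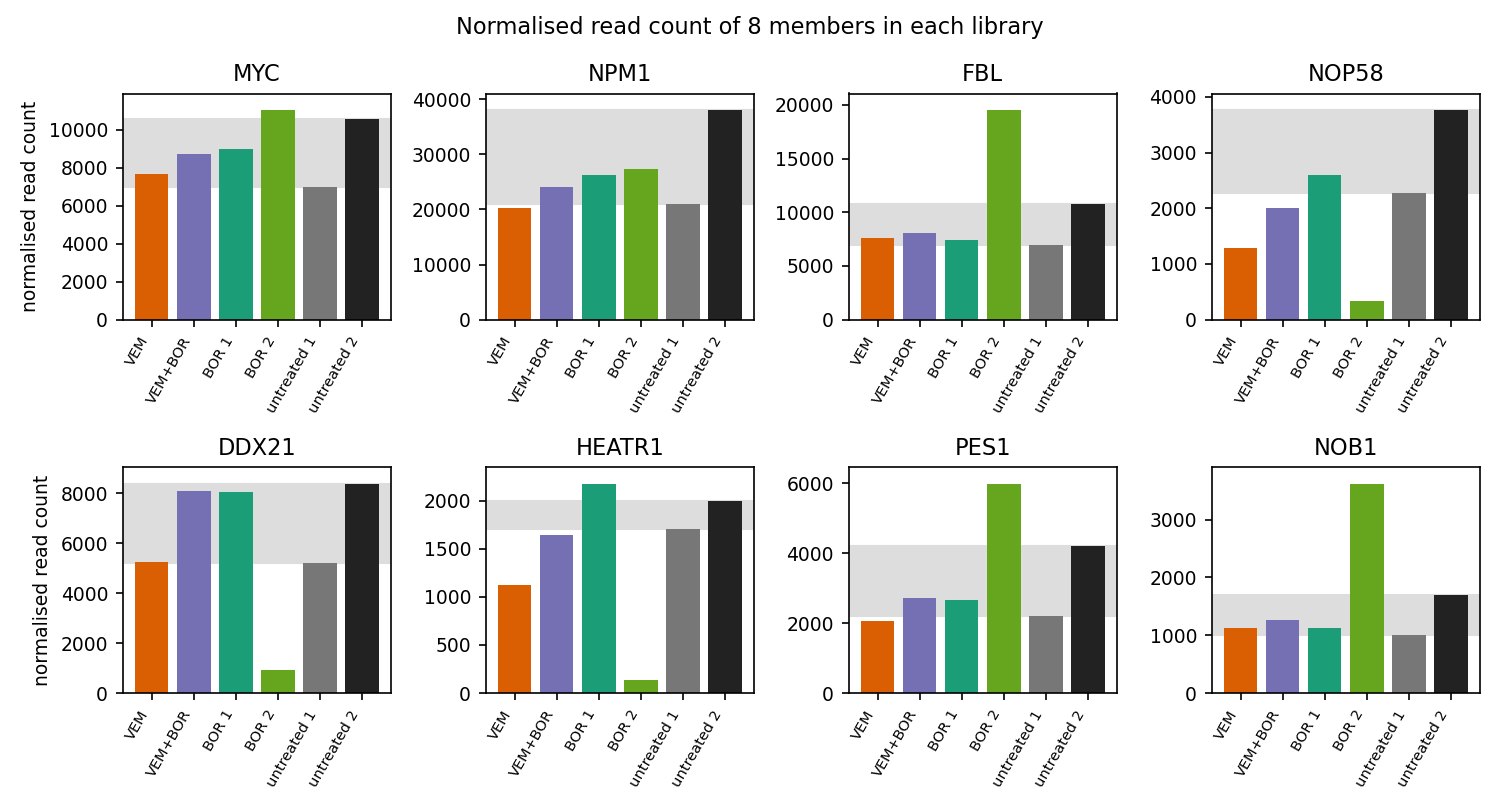
Normalised read counts of selected members in the 6 libraries, treated libraries on the left and untreated on the right, 1 bar per library from a baseline of 0, with the untreated range in grey. In BOR 2, HEATR1 is at 136.1 and NOP58 at 338.8, below all other libraries, and FBL is at 19493 and NOB1 at 3619, above all others.

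In VEM+BOR the same transcripts sat inside the untreated range. Between the untreated libraries were 32 of 36 genes, with RRP12 above both and NOP58, NOP2 and HEATR1 below both. Over all genes tested, 31.5% were above both and 26.6% below both. The median log2 change against untreated was 0.03 (range -2.03 to 0.46), against 0.01 over all genes tested. It was 0.42 against untreated 1 alone and -0.33 against untreated 2 alone. A shift larger than the untreated difference was seen for 1 member, NOP2, against 37.4% of all genes tested. The members' wide untreated gap lowers such counts. No member passed limma's test (Benjamini-Hochberg adjusted p under 0.05), where 0.192% of all genes tested did. None had an unadjusted p under 0.05, against 3.01% of all genes tested. On recovered whole reads, edgeR and DESeq2 each called 0 of the 36 as well.

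VEM+BOR exceeded VEM for 35 of 36 genes, all but NOP2, against 55.1% of all genes tested. The median log2 change, VEM+BOR minus VEM, was 0.43 over the 36 genes (0.35 on library totals) and 0.05 over all genes tested. NIP7 had 1863 normalised reads in VEM+BOR and 1223 in VEM, and DDX21 had 8077 in VEM+BOR and 5266 in VEM. The spread of this comparison comes from the untreated and BOR pairs, since each side is 1 library. No member passed limma's test and none had an unadjusted p under 0.05. Over all genes tested, 0.00% passed and 0.0648% had an unadjusted p under 0.05. This median of 0.43 is smaller than the median of 0.74 between the untreated libraries.

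**Figure D3:**
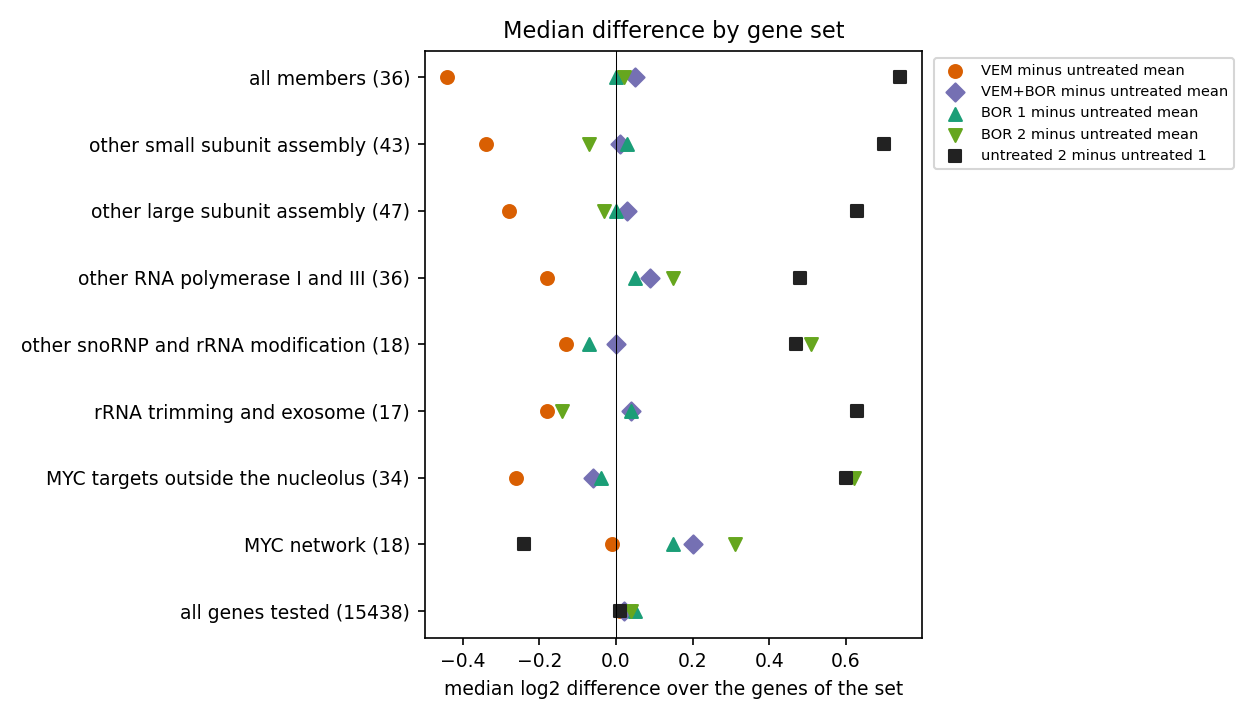
Median log2 difference of the 36 genes, of 7 further gene lists and of all genes tested, for each treated library minus the untreated mean and for untreated 2 minus untreated 1. On the common scale of the 6 libraries the 36 genes have medians of -0.44 in VEM and 0.74 between the untreated libraries, while all genes tested stay near 0.

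BOR 1 and BOR 2 disagreed on these genes. In BOR 1, 34 of 36 lay between the untreated libraries, and NOP2 and HEATR1 above both. Of all genes tested, 29.9% were above both and 20.7% below both in BOR 1. In BOR 2, 11 members were above both and 14 below both, against 43.8% and 41.7% of all genes tested. A shift larger than the untreated difference was seen for 2 members in BOR 1 and 17 in BOR 2, against 30.0% and 72.7% of all genes tested. No member had both BOR libraries above both untreated ones or both below, while 11.5% and 8.45% of all genes tested did. The members' untreated gap, with a median log2 difference of 0.74, makes such places less likely for them. These counts thus do not show that the members responded less than other genes. The members above in BOR 2 were MYC, FBL, RRP12, BOP1, PES1, WDR74, NHP2, POLR1C, PPAN, BYSL and NOB1. On library totals the BOR 2 counts were 7 above and 20 below, against 23.3% and 61.3% of all genes tested, with a median of -0.58, where all genes tested had -0.56.

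Over both BOR libraries the median log2 change against untreated was 0.01 (range -1.75 to 0.64). It was 0.41 against untreated 1 alone, -0.41 against untreated 2 alone and -0.29 on library totals. Of the 36, 0 passed limma's test (Benjamini-Hochberg), where 0.00% of all genes tested did. No member had an unadjusted p under 0.05, against 0.247% of all genes tested, and edgeR and DESeq2 on whole reads also called 0 members. HEATR1 had the lowest log2 change at -1.75 (SE 1.21), followed by NOP58 at -1.63 (SE 0.96) and DDX21 at -1.27 (SE 1.0). NOB1 had the highest at 0.64 (SE 0.67). Without BOR 1, when BOR 2 alone stands for the group and is assumed to vary like the untreated pair, 6 of the 36 passed and so did 26.1% of all genes tested. HEATR1 at -3.75, NOP58 at -3.10, DDX21 at -2.83, WDR43 at -1.89 and POLR1B at -1.18 were lower, and NOB1 at 1.47 was higher. Without BOR 2, none passed, and the log2 changes were 0.24 for HEATR1, -0.17 for NOP58, 0.29 for DDX21 and -0.20 for NOB1. The sign thus turned for HEATR1, DDX21 and NOB1.

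The split of BOR 2 from BOR 1 followed base composition and length. Over the 36 genes, which are not independent replicates, the log2 difference of BOR 2 minus BOR 1 had a Spearman correlation of 0.60 with the GC content of the longest transcript and -0.48 with its length. Over 12738 protein-coding genes the values were 0.56 and -0.37. The 10 members with 40% to 45% GC had a median difference of -1.26, and the 14 members with 55% GC or more had 0.65. Protein-coding genes in the same classes had medians of -0.77 and 0.61. HEATR1 at -3.99, DDX21 at -3.12 and NOP58 at -2.93 formed the low end, and NOB1 at 1.68, FBL at 1.40 and PPAN at 1.39 the high end. The part of GC content and length in the BOR 2 values was not tested.

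How far the members kept their proportions to one another was read from each gene's log2 level minus the median member's log2 level in the same library, set against the untreated mean of that quantity. Without NOP2, the SD of these relative differences was 0.24 in VEM, 0.20 in VEM+BOR, 0.14 in BOR 1 and 1.25 in BOR 2, against 0.27 for untreated 2 minus untreated 1. With NOP2 included, the SDs were 0.24 in VEM, 0.39 in VEM+BOR, 0.20 in BOR 1 and 1.24 in BOR 2, against 0.28. NOP2 was the lowest member in VEM+BOR at -2.04. The treated values are differences from a mean of 2 libraries and the untreated value is a difference between single libraries, so no order was read from SDs close to each other. In VEM, NOP58 was lowest on this measure at -0.69 and NHP2 highest at 0.45.

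VEM+BOR set against BOR gave a median log2 change of 0.04 over the 36 genes and -0.01 over all genes tested. The departure from additive changes (VEM+BOR minus VEM minus BOR plus untreated) had a median of 0.33 over the 36 and -0.04 over all. The median of the departure was 0.83 without untreated 1 and -0.10 without untreated 2, so its sign turned. Without BOR 2 the medians over the 36 were 0.01 for VEM+BOR against BOR and 0.42 for the departure. Both share libraries with the comparisons above. No member passed limma's test or had an unadjusted p under 0.05 in either, and 0.00% of all genes tested passed in each. At an unadjusted p under 0.05 there were 0.291% of all genes tested for VEM+BOR against BOR and 0.0259% for the departure. Without BOR 1, 7 members passed for VEM+BOR against BOR, where 23.6% of all genes tested did, and 4 for the departure, where 13.1% did. The 7 were HEATR1, DDX21, NOP58, WDR43, RRS1 and POLR1B, higher in VEM+BOR, and NOB1, lower. The 4 were HEATR1, NOP58, DDX21 and WDR43.

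Further genes of the pathway, taken from lists by role, were also mostly higher in untreated 2 than in untreated 1. Untreated 2 exceeded untreated 1 for 42 of 43 other small-subunit factors (median log2 difference 0.70) and 45 of 47 other large-subunit factors (0.63). It did so for 34 of 36 other genes of RNA polymerases I and III (0.48), 18 of 18 other snoRNP and modification genes (0.47) and 17 of 17 exosome and trimming genes (0.63). MYC targets outside the nucleolus did so in 34 of 34 cases (0.60), against 50.4% of all genes tested. Genes of the MYC network did so in 5 of 18 cases, with a median of -0.24. That list holds MAX and antagonists of MYC, and also further genes such as MLXIPL and MYCBP2. The network list thus went the other way from the list of targets.

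In VEM these lists had median log2 changes of -0.34, -0.28, -0.18, -0.14, -0.18 and -0.27 in the same order, and -0.02 for the MYC network. The counts below both untreated libraries were 21 of 43, 22 of 47, 12 of 36, 4 of 18, 6 of 17 and 13 of 34, and 4 of 18 for the network. Of all genes tested, 27.3% were below both in VEM, so several of these lists were near that share. No gene of these lists passed limma's test in VEM, VEM+BOR or BOR. Among genes with a mean of at least 50, the U3-processome scaffold UTP20 had the lowest VEM change of the small-subunit list, at -1.38 (SE 0.42, adjusted p = 0.713). UTP20 had 214.6 normalised reads in VEM, 420.9 in VEM+BOR, 667.7 in BOR 1 and 58.7 in BOR 2, against 459.8 (untreated 1) and 680.2 (untreated 2). In the large-subunit list the VEM changes ran between -0.93 for RSL1D1 and 0.42 for RSL24D1. In VEM+BOR the medians of the lists lay between -0.07 and 0.22, and over both BOR libraries between -0.06 and 0.29. All genes tested had medians of 0.01 and 0.04 in these comparisons. TFRC, the transferrin receptor gene and a MYC target outside the nucleolus, had the highest VEM+BOR change of its list at 1.03 (SE 0.46, limma adjusted p = 0.9999).

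Within the MYC network, MAX, the obligate partner of MYC, had 637.6 normalised reads in VEM, 793.9 in VEM+BOR, 723.4 in BOR 1 and 1046 in BOR 2, against 547.4 (untreated 1) and 796.3 (untreated 2). MXD1, an antagonist that competes with MYC for MAX, had 141.0 in VEM, 230.8 in VEM+BOR, 148.9 in BOR 1 and 1091 in BOR 2, against 106.0 (untreated 1) and 86.1 (untreated 2). Every treated library was above both untreated ones for MXD1, and the log2 changes were 0.55 (SE 0.54) in VEM, 1.25 (SE 0.51) in VEM+BOR and 2.07 (SE 0.96) in BOR, none past the threshold. MXI1, another antagonist, had 1026 in VEM, 1006 in VEM+BOR, 1071 in BOR 1 and 3160 in BOR 2, against 825.0 (untreated 1) and 844.7 (untreated 2). MXI1 too was above both untreated libraries in every treated library. Above both were 4 of 18 network genes in VEM, 8 in VEM+BOR, 5 in BOR 1 and 9 in BOR 2. Below both were 4, 4, 2 and 7. Of all genes tested, 30.9%, 31.5%, 29.9% and 43.8% were above both in the same order, and 27.3%, 26.6%, 20.7% and 41.7% below both. MYCBP2 went the other way, with 496.6 in VEM, 761.3 in VEM+BOR, 1061 in BOR 1 and 104.0 in BOR 2, against 1314 (untreated 1) and 830.2 (untreated 2). The antagonist MNT had 293.8 in VEM, 344.9 in VEM+BOR, 282.3 in BOR 1 and 224.1 in BOR 2, against 311.8 (untreated 1) and 276.7 (untreated 2). MNT lay between the untreated libraries in VEM and BOR 1.

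The authors' deposited table for each treatment gave 0 of the 36 genes an adjusted p under 0.05. The smallest in the authors' deposited tables was 0.855.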

How the data were processed

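RNA of SKM-1 cells was measured in 6 libraries, grouped by the treatment labels, and replicate numbers follow accession order and pair nothing. Per the labels' protocols, poly-A RNA was primed with random hexamers and read in pairs on a NovaSeq instrument. The submitters' processing notes name edgeR 3.22.5, DESeq2 1.20.0, featureCounts 1.5.0-p3, HISAT2 2.0.5 and CASAVA and no genome build (not given in the sources used here). All 26704 listed genes have the coordinates and symbols of GENCODE 29, an annotation of GRCh38.

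The authors deposited 3 tables with a normalised signal (reads divided by 1 factor per library), the authors' log2 fold changes and the authors' p-values, both used only where the deposited table is named. Whole reads were recovered for 100% of values within 0.001. The step of VEM is too near 1 to check this, so no count test used VEM. The plan named edgeR if raw counts were found; normalised values were, so the test was limma 3.58.1 (R 4.3.3, mean-variance trend, two-sided) on values logged as log2(value + 1). Genes needed a mean of at least 10, with Benjamini-Hochberg adjustment over all genes. Each treatment was tested within its own table; VEM+BOR against BOR, against VEM and the departure used median-of-ratios scaling of all 6 libraries, as did the values printed per library. A single library was assumed to vary like the pairs, which left 1 residual degree of freedom in the VEM and the VEM+BOR fits and 2 otherwise. limma drew each gene's spread toward that of genes of similar level. The prior degrees of freedom were 18 for VEM, 19.7 for VEM+BOR, 4.2 for BOR and 4.1 otherwise. Most of the spread behind the p-values was thus borrowed from other genes. The code was tested on simulated data.

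The alternatives tried were count tests of the recovered reads (edgeR 4.0.16 and DESeq2 1.42.0, which called 85 and 63 genes for VEM+BOR against untreated), other filters, a pseudocount of 10, library totals and leaving out libraries. All 36 members are named, with values per library for those the results turn on. From other lists the highest and lowest changes among genes with a mean of at least 50, with MAX, MXD1, MXI1 and MNT, could be named. The members and lists were chosen with earlier results of these data known.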

Additional observations from a re-analysis of the deposited data

How the results depend on the processing

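Count tests by edgeR and DESeq2 were run only for VEM+BOR against untreated, BOR against untreated and VEM+BOR against BOR. The 1 fit of all libraries was an alternative only for the comparisons with untreated. No member passed in any of 6 comparisons under the alternatives run for it (filters, pseudocount, library totals, 1 fit, edgeR, DESeq2, libraries left out), except when BOR 1 was left out. Members called then ranged between 0 and 6 for BOR against untreated, 0 and 7 for VEM+BOR against BOR, and 0 and 4 for the departure. Of the single member values under alternatives, 189 had the other sign, with 0 of them called on either side, and 17 passed, all without BOR 1. The counts over all genes depended more on settings. For VEM, 7 genes passed, against 0 without a filter, 40 on library totals, 0 in 1 fit of all libraries and 0 to 17 with a library left out. For VEM+BOR, 30 passed, against 0 without a filter, 89 on library totals, 0 in 1 fit, 85 by edgeR, 63 by DESeq2 and 0 to 52 with a library left out. DESeq2 called 33 for BOR and 3 for VEM+BOR against BOR, where limma called 0. With a library left out, counts ran between 0 and 4008 for BOR, 0 and 3648 for VEM+BOR against BOR, 0 and 1 for VEM+BOR against VEM, and 0 and 2022 for the departure. The cause was not tested. The members' median for VEM ranged between -0.79 and 0.02 with an untreated library left out, for VEM+BOR between -0.33 and 0.42, for BOR between -0.41 and 0.41, for the departure between -0.10 and 0.83, and on library totals it was -0.29 for BOR, 0.30 for VEM+BOR against BOR and 0.55 for the departure. No paired analysis was possible because the labels give no replicate numbers shared between groups.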
